A study of Mus musculus with 16 samples.

Results

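The genes described here encode splicing factors and ribonucleoprotein (RNP) proteins of 7 families: the heterogeneous nuclear RNPs (hnRNP, 16 genes), the SR proteins (9), the proteins of the small nuclear RNPs (snRNP, 8), the SF3 complex (8), the ELAVL proteins (4), the CELF proteins (3) and the polypyrimidine tract-binding proteins (PTBP, 2). They were chosen by symbol: a probe set was taken when the platform annotation gave it exactly 1 gene symbol beginning with Hnrnp, Hnrp, Srsf, Sfrs, Snrp, Sf3, Elavl, Nova, Celf or Ptbp. This gave 50 genes of the 8251 named genes on the array, and 70 probe sets of the 12422 tested. No probe set of Nova1, Nova2, Ptbp1 or Snrpn was taken by this rule. Each gene was represented by its brightest probe set by the mean of the 16 arrays, and the 20 remaining probe sets, which belong to 17 of the genes, served as a check. 49 of the genes are protein coding, and 1, Snrp1c-ps2, is annotated as a pseudogene.

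The arrays compared adult mouse retina with newborn mouse cerebral cortex, and the stated purpose was to measure variation between replicates and between sites. The retina RNA was a pool from 350 adult C57/B6 mice, and the cortex RNA was a pool from 19 mice at postnatal day 1. The strain of the cortex donors is uncertain, since the samples' own descriptions say C57/B6 but the series design says Swiss-Webster, so organ, age and possibly strain differ together. Each array was a 1-colour oligonucleotide array that received about 10 µg of total RNA, with 5 arrays per tissue at the first site and 3 per tissue at site 2. All arrays of a tissue are aliquots of its single pool, so every error and p-value below measures technical spread and none measures spread between animals.

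Pre-mRNA splicing is carried out by the spliceosome, whose snRNPs carry a ring of Sm proteins, and in which the SF3 complex belongs to the particle that recognises the branch point of the intron. SR proteins mostly promote the use of nearby exons, hnRNPs often oppose them, and PTBP, CELF and ELAVL proteins add regulation that is specific to tissues, much of it in neurons. Elavl2, Elavl3 and Elavl4 encode neuronal RNA-binding proteins that are widely used as markers of neurons, whereas Elavl1 encodes HuR, which is made in most cell types.

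The ELAVL genes showed the widest spread of tissue differences within a family, with Elavl1 on one side and the neuronal members on the other, so promoter sequences of Elavl1 and Elavl3, the 2 members with a single listed start, are shown for reference. The sequences are the 250 bases before the start site on the minus strand in RefSeq's GRCm38.p6, at chr8:4325101-4325350 for Elavl1 and chr9:22052024-22052273 for Elavl3. Capitals mark the CCAAT box, the E-box motif CAGCTG or the TATA box motif TATAAA, found on either strand.
Elavl1: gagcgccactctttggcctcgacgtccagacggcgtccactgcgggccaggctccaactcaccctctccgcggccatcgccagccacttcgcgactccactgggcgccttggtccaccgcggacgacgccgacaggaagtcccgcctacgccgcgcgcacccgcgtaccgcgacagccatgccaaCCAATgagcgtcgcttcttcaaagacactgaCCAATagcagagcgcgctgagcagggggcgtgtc
Elavl3: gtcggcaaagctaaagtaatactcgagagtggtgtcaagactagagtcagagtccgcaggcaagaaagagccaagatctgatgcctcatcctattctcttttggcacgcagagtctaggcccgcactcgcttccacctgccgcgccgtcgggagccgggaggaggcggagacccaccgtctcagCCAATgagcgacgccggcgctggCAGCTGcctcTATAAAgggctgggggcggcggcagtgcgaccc
The Elavl1 stretch held CCAAT 2 times, and the Elavl3 stretch held the CCAAT box, the E-box motif, the TATA box motif and the GC box motif GGGCGG 1 time each, the last not in capitals. Of the 50 genes, 43 had an entry in the promoter table. Over those 43, CCAAT was found in 41.9% (34.5% of the 27025 genes in the table), CAGCTG in 9.30% (12.8%), TATAAA in 14.0% (13.0%) and GGGCGG in 65.1% (32.9%), counted on both strands in stretches of the same length. Their median GC content was 60.8%, against 52.0% over all genes in the table. Windows for Elavl2 and Elavl4 were taken at the first of 6 and 4 listed starts and held none of these 4 motifs.

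Intensities are printed after scaling so that the median probe set of each array is 100, and replicate values are given in the order of the array numbers. Differences are retina minus cortex on the scale of log2(intensity + 16), centred on each array's median, with the standard error (SE). A gene was called at an adjusted p under 0.05 (limma, Benjamini-Hochberg over all probe sets). Deposited array medians ran from 45.7 to 216 and summed intensities from 2478885 to 8639518. Among 13 control probe sets without added target, the highest on each array lay between 8.8 and 38.3 in deposited intensity, and 49 of the 50 genes exceeded it on all 16 arrays. Across the genes, the median coefficient of variation at the first site was 9.0% (retina) and 11.6% (cortex), and at site 2 it was 7.77% and 18.9%. Cortex array 2 of site 2 stood apart, with the lowest array median (45.7) and a median correlation of 0.943 with its group, against 0.967 and 0.965 for the other two, across probe sets. For the tissue difference at site 2, counts over the 50 genes and their families and calls of the brightest probe sets are given both ways where they change without this array. Other counts that use site 2, such as genes called at both sites, gene lists and other probe sets, are given with all arrays.

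At the first site, more of these genes were lower in retina than higher. Of the 50 genes, 27 were called lower in retina (54.0%), 12 higher (24.0%) and 11 not called, where 53.5% of all named genes were called, 28.0% lower and 25.5% higher. Their median difference was -0.265, against -0.044 over all named genes. With no centring of the arrays, 15 were lower and 8 higher. Without the ELAVL genes the median of the remaining 46 was -0.255 and 24 were lower. In 22 genes every retina array lay below every cortex array and in 8 the reverse held, against 23.1% and 20.4% of all genes. A difference of at least 2-fold on this scale was called lower for 5 genes (Elavl2, Elavl3, Elavl4, Celf1 and Ptbp2) and higher for 2 (Hnrnph3 and Snrp1c-ps2), against 8.92% and 8.46% of all genes. In these bulk samples, fewer cells of a type and less RNA per cell cannot be told apart.

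At site 2, where 3 arrays per tissue were run, 15 of the 50 genes were lower in retina and 9 higher, against 38.0% called among all named genes (17.9% lower and 20.1% higher). The median difference was -0.21 over the 50 genes and -0.01 over all genes. Without cortex array 2, 22 were lower and 10 higher, and 52.2% of all genes were called. Without retina array 1, 8 were lower. With arrays scaled to a median of 100 before the pseudocount, 11 were lower, and the calls of Celf4, Hnrnpa1, Snrpe, Srsf6 and Srsf11 were lost. With no centring of the arrays, 3 were lower (Elavl2, Elavl3 and Sf3b1) and 0 higher (limma, adjusted p under 0.05). At both sites, 15 genes were called lower (16.3% of all genes were) and 8 higher (17.5%), and no gene was called in opposite directions. The 15 include Sf3b1, whose probe sets disagree, and 14 remain without it. The sign of the difference was the same at both sites for 44 of the 50 genes and for 6501 of all 8251 named genes. Across the 50 genes, which share arrays and are not independent, the differences at the 2 sites correlated at r = 0.85 and rho = 0.85, and without the ELAVL genes at r = 0.73, as a description. Over all named genes the values were r = 0.92 and rho = 0.83.

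**Figure D1:**
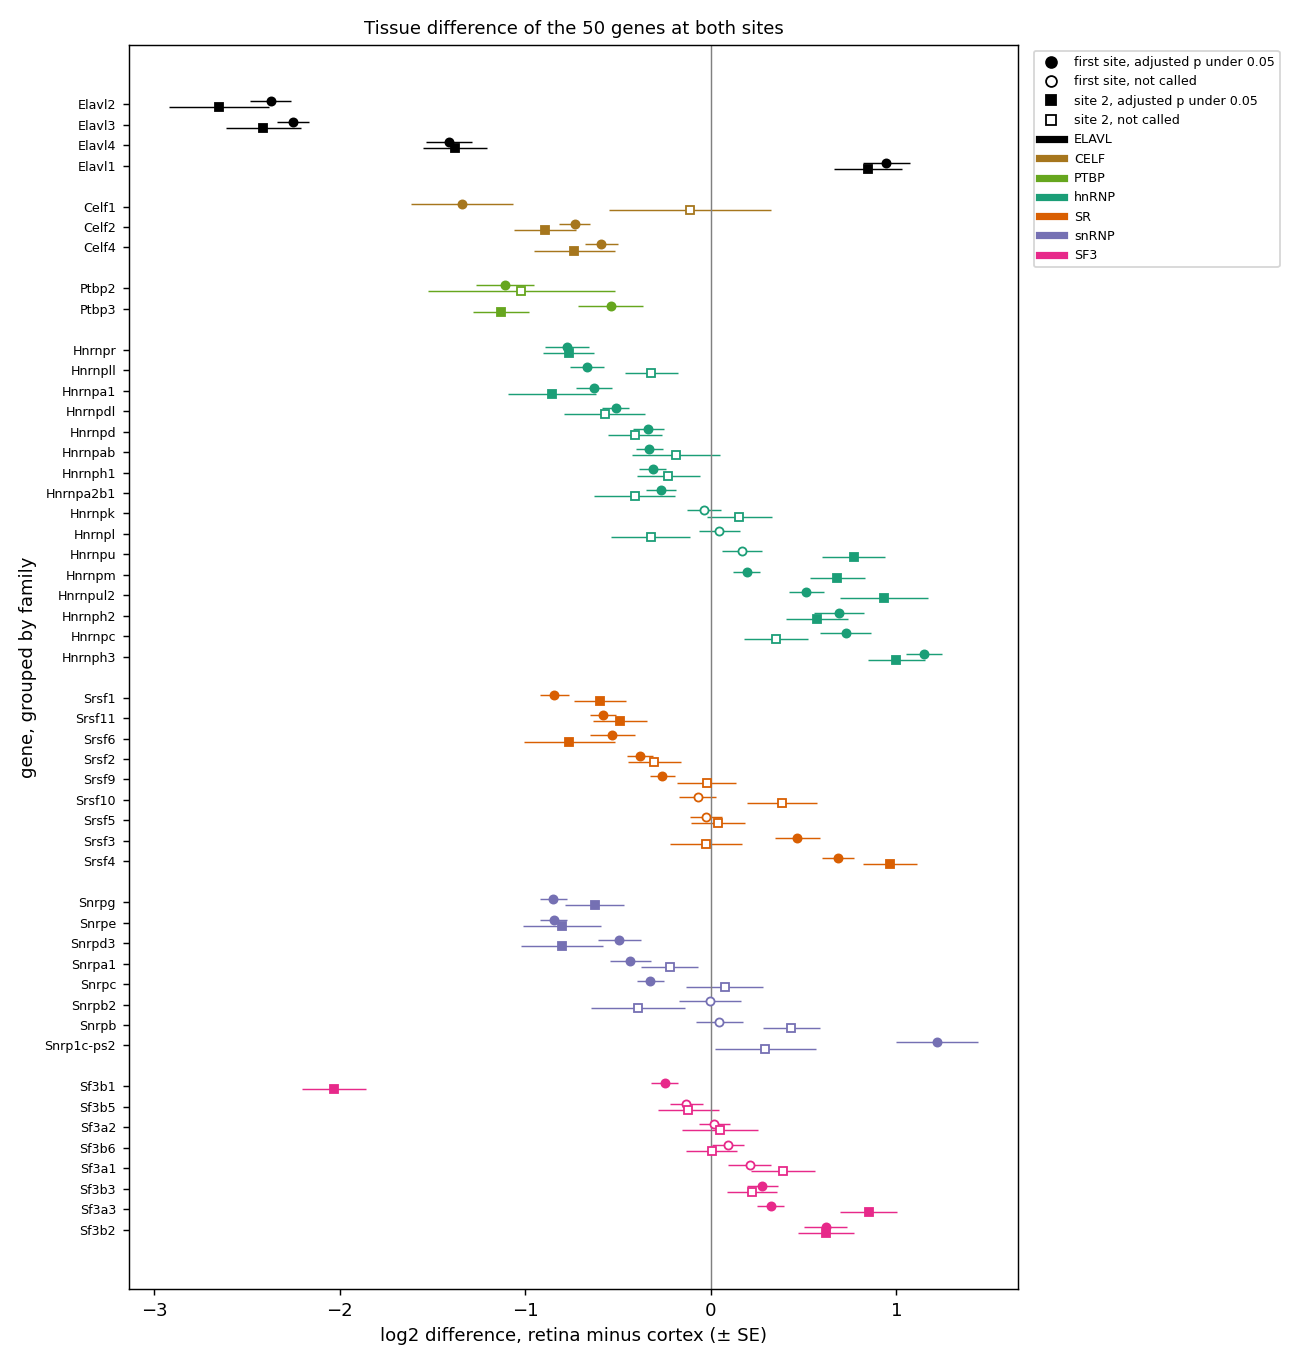
Log2 difference between retina and cortex (x axis, ± SE) of each of the 50 genes (y axis, grouped by family) at the first site (circles, 5 arrays per tissue) and at site 2 (squares, 3 arrays per tissue). Filled symbols have an adjusted p under 0.05. Elavl2, Elavl3 and Elavl4 lie between -2.65 and -1.38 at both sites, Elavl1 lies at 0.95 and 0.85, and the site 2 value of Sf3b1 stands apart from its first-site value.

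Elavl2, Elavl3 and Elavl4 were lower in adult retina and Elavl1 was higher, at both sites. Elavl2, which encodes HuB, had scaled intensities of 131, 181, 137, 155 and 127 in retina and 888, 670, 778, 947 and 798 in cortex at the first site. At site 2 the values were 99.2, 103 and 69.0 in retina and 823, 454 and 726 in cortex. All retina arrays were low and all cortex arrays high, with no overlap at either site. The difference was -2.37 ± 0.11 at the first site (adjusted p = 2.3e-11) and -2.65 ± 0.27 at site 2 (adjusted p = 3.8e-05).

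Elavl3, which encodes HuC, gave 202, 201, 158, 205 and 166 in retina and 928, 1029, 873, 875 and 1000 in cortex at the first site. Site 2 gave 118, 127 and 133 in retina and 830, 596 and 827 in cortex. The tissues again did not overlap, and the differences were -2.25 ± 0.09 (adjusted p = 2.6e-12) and -2.41 ± 0.20 (adjusted p = 1.1e-05).

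Elavl4, which encodes HuD, gave 103, 68.5, 85.4, 93.0 and 93.1 in retina and 294, 214, 220, 295 and 284 in cortex at the first site. Site 2 gave 125, 120 and 133 in retina and 300, 364 and 416 in cortex. No retina array reached the lowest cortex array of its site, and the differences were -1.41 ± 0.12 (adjusted p = 7.4e-08) and -1.38 ± 0.17 (adjusted p = 0.00015).

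Elavl1 went the other way. Its scaled intensities at the first site were 542, 492, 539, 486 and 467 in retina and 229, 205, 215, 332 and 325 in cortex. At site 2 they were 719, 778 and 865 in retina and 502, 368 and 447 in cortex. Every retina array lay above every cortex array of its site, and the differences were 0.95 ± 0.13 (adjusted p = 1e-05) and 0.85 ± 0.18 (adjusted p = 0.0052).

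The cortex pool also carried more RNA of immature neurons and of dividing cells. Of 11 measured genes of a list for migrating and immature neurons, 11 were lower in retina at both sites, and their summed scaled intensity was 4846 to 5340 in retina and 45207 to 55221 in cortex at the first site, and 5557 to 6126 and 35767 to 63479 at site 2. Of 25 genes of dividing cells that were measured, the first site called 21 lower in retina and 1 higher, and 15 were lower at site 2, with sums of 5091 to 5649 in retina and 12467 to 14546 in cortex at the first site, and 5090 to 5632 and 9862 to 18160 at site 2. Much of that sum came from Stmn1, which immature neurons also express, and without it, a choice made after its values were seen, the sums were 2651 to 2955 and 4395 to 4794 at the first site and 2601 to 2829 and 4513 to 5837 at site 2. The part of these cell types in the differences of the splicing factor genes was not tested. The tissue labels were met by their markers: 7 rod photoreceptor genes summed to 46303 to 54242 in retina and 82 to 124 in cortex at the first site, where Pde6b, Rcvrn, Pdc and Rom1 were not above the control probe sets on any cortex array, and 4 genes of newborn cortex neurons to 213 to 302 in retina and 6824 to 7885 in cortex. Sums of other marker lists also differed between the pools at the first site. Lens genes gave 892 to 978 in retina and 97 to 176 in cortex, and pigment epithelium 2935 to 3453 and 317 to 367. Erythroid genes gave 732 to 860 and 3241 to 3661, and meningeal fibroblast genes 801 to 1127 and 1626 to 1774. Progenitor and radial glia genes gave 1961 to 2288 and 7384 to 9266, where 3 genes were called lower in retina, 1 higher and 1 not called. Endothelial genes summed to 584 to 659 in retina and 403 to 481 in cortex. Against that sum, 2 endothelial genes were called lower in retina, 1 higher and 1 not called, with a median difference of -0.46. Microglia genes summed to 394 to 417 in retina and 446 to 524 in cortex.

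**Figure D2:**
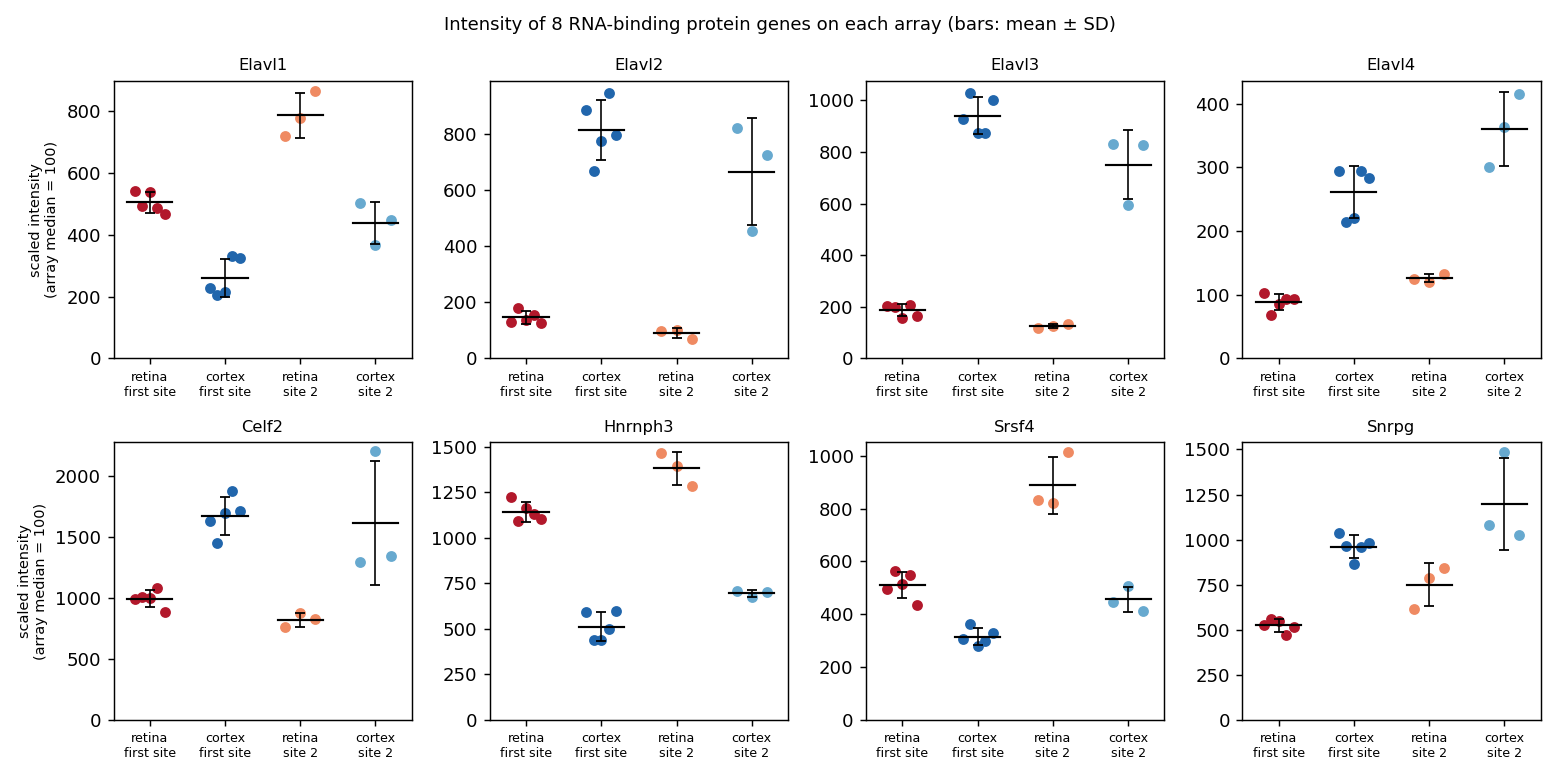
Scaled intensity (y axis, array median 100, linear, from 0) of 8 genes on each array of the 4 groups (x axis), with bars for the mean ± SD over 5 or 3 arrays. Elavl2, Elavl3, Elavl4, Celf2 and Snrpg are lower in retina, and Elavl1, Hnrnph3 and Srsf4 are higher, without overlap between the tissues of a site.

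All 3 CELF genes, which encode regulators of alternative splicing and mRNA decay, were called lower in retina at the first site and 2 at site 2, or 3 without cortex array 2 of site 2. Celf2 had scaled intensities of 991, 1006, 1001, 1078 and 886 in retina and 1635, 1447, 1695, 1879 and 1710 in cortex at the first site, and 758, 873 and 829 against 1295, 2204 and 1348 at site 2. The tissues did not overlap, with differences of -0.73 ± 0.08 (adjusted p = 1.2e-06) and -0.89 ± 0.17 (adjusted p = 0.0021). The other probe set of Celf2 differed by -1.60 ± 0.09 and -1.32 ± 0.40, both called.

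Celf4, a member found mostly in neurons, differed by -0.59 ± 0.09 at the first site (adjusted p = 3.6e-05) and by -0.73 ± 0.22 at site 2 (adjusted p = 0.025). Its first-site arrays spanned 1149 to 1576 in retina and 1727 to 2214 in cortex, and its site 2 arrays 1088 to 1347 and 1546 to 3441, without overlap. The site 2 call was lost when any 1 of the 3 retina arrays was left out (adjusted p = 0.054 to 0.10).

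Celf1, which binds GU-rich sequences, was the 1 gene not above the control probe sets on every array. It gave 46.7, 15.6, 80.6, 11.7 and 30.1 in retina and 97.5, 90.3, 115, 81.0 and 134 in cortex at the first site, where retina arrays 2 and 4 were not above the controls. The lowest cortex array was just above the highest retina array, and the difference was -1.34 ± 0.28 (adjusted p = 0.00065). At site 2 it gave 91.1, 79.5 and 73.8 in retina and 132, 15.5 and 157 in cortex, where the low value is on cortex array 2, and the difference was -0.11 ± 0.44 (adjusted p = 0.951). Without that array the difference was -0.75 (adjusted p = 0.0025). The other, dimmer probe set of Celf1 was lower in retina at both sites, by -0.51 ± 0.16 (adjusted p = 0.018) and -0.75 ± 0.25 (adjusted p = 0.039).

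Both measured PTBP genes were lower in retina at the first site, and 1 was at site 2, or 2 without cortex array 2 there. Ptbp2, the neuronal paralogue of the splicing repressor PTB, gave 445, 355, 470, 393 and 424 in retina and 805, 744, 809, 900 and 1511 in cortex there. The cortex arrays were all higher, array 5 most of all, and the difference was -1.11 ± 0.16 (adjusted p = 1.5e-05). At site 2 Ptbp2 gave 431, 438 and 444 in retina and 1553, 339 and 1396 in cortex, a difference of -1.02 ± 0.50 that missed the threshold (adjusted p = 0.165). Cortex array 2 was the low one, and without it the difference was -1.78 (adjusted p = 1.2e-07). The other probe set of Ptbp2 was lower in retina at both sites, by -0.70 ± 0.20 (adjusted p = 0.0068) and -1.08 ± 0.18 (adjusted p = 0.00095).

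Ptbp3, a further PTB paralogue, gave 126, 99.1, 90.0, 136 and 71.1 in retina and 143, 109, 147, 205 and 190 in cortex at the first site, where the tissues overlapped. At site 2 it gave 89.8, 84.6 and 76.8 against 199, 209 and 201, where they did not. The differences were -0.54 ± 0.17 (adjusted p = 0.017) and -1.13 ± 0.15 (adjusted p = 0.00027). The first-site call was lost without cortex array 4 (adjusted p = 0.052) and without retina array 5 (adjusted p = 0.050).

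The hnRNP family was split. At the first site 8 of 16 genes were lower in retina, 5 were higher and 3 were not called, against 28.0% lower and 25.5% higher of all named genes. The median difference of the family was -0.15. At site 2, 2 were lower and 5 higher, against 17.9% and 20.1% of all named genes, and the family median was -0.21. Without cortex array 2 there, 7 of the family were lower and 5 higher, with a median of -0.11. Among those lower, Hnrnpr, an abundant RNA-binding protein of nucleus and cytoplasm, gave 861, 647, 810, 740 and 547 in retina and 1163, 1291, 1187, 1470 and 1109 in cortex at the first site. Site 2 gave 727, 777 and 733 against 1195, 1628 and 1147. Retina was below cortex on every array of each site, by -0.78 ± 0.12 (adjusted p = 3.4e-05) and -0.77 ± 0.14 (adjusted p = 0.0017).

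Hnrnpa1, which binds splicing silencers, gave 108, 132, 110, 122 and 122 in retina and 209, 175, 183, 219 and 175 in cortex at the first site, and 103, 104 and 104 against 176, 340 and 142 at site 2. It did not overlap between tissues and differed by -0.63 ± 0.10 (adjusted p = 5.1e-05) and -0.85 ± 0.24 (adjusted p = 0.019). The site 2 call was lost without any 1 of the 3 retina arrays (adjusted p = 0.054 to 0.064). Its relative Hnrnpa2b1 spanned 2747 to 3200 in retina and 3205 to 3972 in cortex at the first site, a difference of -0.27 ± 0.08 (adjusted p = 0.011), and was not called at site 2 (-0.41 ± 0.22, adjusted p = 0.20). The other probe set of Hnrnpa2b1 was called at neither site, with first-site means of 190 in retina and 225 in cortex.

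Hnrnpll, a relative of the CA-repeat-binding hnRNP L, spanned 401 to 472 in retina and 602 to 816 in cortex at the first site and differed by -0.67 ± 0.09 (adjusted p = 1.1e-05). Hnrnpd, which encodes the AU-rich element-binding protein AUF1, differed by -0.34 ± 0.08 (adjusted p = 0.0035), and its relative Hnrnpdl by -0.51 ± 0.07 (adjusted p = 1.6e-05). At site 2 none of the brightest probe sets of these 3 genes passed the threshold over all arrays (-0.32 ± 0.14, -0.41 ± 0.15 and -0.57 ± 0.22 for Hnrnpll, Hnrnpd and Hnrnpdl). All 3 did so without cortex array 2, at adjusted p = 0.0069, 0.021 and 0.040, and that of Hnrnpdl also without cortex array 3 (adjusted p = 0.024). Another probe set of Hnrnpdl was called lower in retina at both sites over all arrays. Its mean intensities at site 2 were 605 in retina and 1180 in cortex. The third probe set of Hnrnpdl was not above the controls on any array and was not called. Hnrnph1, a G-run-binding protein, was lower by -0.31 ± 0.07 at the first site (adjusted p = 0.0015) and differed by -0.23 ± 0.17 at site 2 (adjusted p = 0.39).

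Hnrnph3, a further member of the G-run-binding group, was higher in retina. Its intensities at the first site were 1222, 1092, 1165, 1129 and 1102 in retina and 591, 437, 437, 498 and 598 in cortex. At site 2 they were 1465, 1393 and 1284 in retina and 710, 672 and 701 in cortex. Each retina array was above each cortex array of its site, and the differences were 1.15 ± 0.10 (adjusted p = 4e-08) and 1.00 ± 0.15 (adjusted p = 0.0006). Hnrnph2 of the same group gave 388 to 534 in retina and 214 to 394 in cortex at the first site, which overlap, and differed by 0.69 ± 0.13 (adjusted p = 0.00036). At site 2 Hnrnph2 differed by 0.57 ± 0.17 (adjusted p = 0.024), a call lost without retina array 1 (adjusted p = 0.099) or retina array 3 (adjusted p = 0.104).

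A further 3 hnRNP genes were called higher at the first site. Hnrnpc, which binds uridine tracts and packages nascent transcripts, gave 354, 340, 320, 348 and 277 in retina and 159, 145, 189, 254 and 235 in cortex, without overlap, a difference of 0.73 ± 0.14 (adjusted p = 0.00027). At site 2 it differed by 0.35 ± 0.17 (adjusted p = 0.17). Hnrnpul2, related to the nuclear scaffold protein hnRNP U, was higher by 0.52 ± 0.10 (adjusted p = 0.00026) and 0.93 ± 0.24 (adjusted p = 0.012), but its other probe set differed by -0.04 ± 0.12 and -0.04 ± 0.15, neither called. Hnrnpm, a splicing regulator, was higher by 0.19 ± 0.07 (adjusted p = 0.037) and 0.68 ± 0.15 (adjusted p = 0.0048). The first-site call of Hnrnpm was lost under leaving out retina array 1, 2, 3 or 4 or cortex array 2, 3 or 4, with adjusted p between 0.053 and 0.113.

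The remaining hnRNP genes were Hnrnpab, Hnrnpk, Hnrnpl and Hnrnpu, which are named here after their values were seen. The dimmer probe set of Hnrnpab was called lower in retina at both sites over all arrays. It was above the controls on 14 of the 16 arrays, and its site 2 means were 34.5 for retina and 93.0 for cortex. The brighter probe set, used for the other Hnrnpab values here, was lower at the first site by -0.33 ± 0.07 (adjusted p = 0.0011). Hnrnpk and Hnrnpl, which bind C-rich and CA-rich RNA, differed by -0.04 ± 0.09 and 0.05 ± 0.11 there and were called at neither site, although Hnrnpl without cortex array 2 of site 2 was lower (-0.50, adjusted p = 0.031), as was Hnrnpab (-0.49, adjusted p = 0.0031). Hnrnpu was higher at site 2 by 0.77 ± 0.17 (adjusted p = 0.0056) and not called at the first site (0.17 ± 0.11, adjusted p = 0.23), while its other probe set was called at neither.

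Of the 9 SR genes, 5 were lower in retina and 2 higher at the first site, against 28.0% and 25.5% of all named genes. The 2 higher include Srsf3, for which no direction is given below. At site 2, 3 SR genes were lower and 1 higher, against 17.9% and 20.1% of all named genes. The family median was -0.26 at the first site and -0.03 at site 2, or -0.11 without cortex array 2 of site 2. Srsf1, the SR protein known as SF2/ASF, gave 302, 273, 259, 316 and 270 in retina and 510, 534, 464, 558 and 549 in cortex at the first site. Site 2 gave 381, 412 and 416 against 640, 644 and 598. No array overlapped, with differences of -0.84 ± 0.08 (adjusted p = 1.9e-07) and -0.59 ± 0.14 (adjusted p = 0.008). Of its 3 other probe sets, 1 was called lower at the first site (-0.67 ± 0.13) and none at site 2, and the mean of all its probe sets was not called at site 2.

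Srsf11 and Srsf6, further members of the family, were lower at both sites: Srsf11 by -0.58 ± 0.07 (adjusted p = 3.5e-06) and -0.49 ± 0.14 (adjusted p = 0.025). Srsf6 differed by -0.53 ± 0.12 (adjusted p = 0.0015) and -0.76 ± 0.25 (adjusted p = 0.037). Both site 2 calls were lost without any 1 of the 3 retina arrays, and that of Srsf11 also without cortex array 1, with adjusted p of 0.062 to 0.094 for Srsf11 and 0.085 to 0.115 for Srsf6. Srsf2 and Srsf9 were lower at the first site, by -0.38 ± 0.07 (adjusted p = 0.00021) and -0.26 ± 0.07 (adjusted p = 0.0038), and were not called at site 2 (-0.30 ± 0.14 and -0.02 ± 0.16). The other probe set of Srsf2 was called at neither site, with first-site means of 800 in retina and 909 in cortex.

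Srsf4 was higher in retina at both sites. Its intensities were 495, 562, 515, 549 and 436 in retina and 307, 361, 278, 297 and 329 in cortex at the first site, and 831, 823 and 1014 against 447, 508 and 414 at site 2. The tissues did not overlap, and the differences were 0.69 ± 0.09 (adjusted p = 5.2e-06) and 0.96 ± 0.14 (adjusted p = 0.00053). The other probe set of Srsf4 was higher as well, by 0.93 ± 0.10 and 0.60 ± 0.19. Srsf5 was called at neither site (-0.03 ± 0.09 and 0.04 ± 0.14), nor was Srsf10 (-0.07 ± 0.10 and 0.38 ± 0.19), which is named after its values were seen. The other probe set of Srsf10 was called higher in retina at the first site, with mean intensities of 235 in retina and 195 in cortex. It was not called at site 2.

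Srsf3, a small SR protein, was called in opposite directions by its probe sets at the first site. The brighter probe set gave 927, 933, 990, 883 and 869 in retina and 676, 484, 619, 871 and 736 in cortex, a difference of 0.47 ± 0.12 (adjusted p = 0.0044). The other gave 150, 161, 151, 155 and 126 in retina and 193, 194, 206, 193 and 160 in cortex, a difference of -0.32 ± 0.10 (adjusted p = 0.012). In the brighter set cortex array 4 lay just inside the retina range, and in the other only retina array 2 lay just above the lowest cortex array. At site 2 neither was called (-0.03 ± 0.19 and -0.80 ± 0.28), so no direction is given for Srsf3.

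Among the snRNP genes, 5 of 8 were lower in retina at the first site and 1 higher, against 28.0% and 25.5% of all named genes. Their median was -0.38. At site 2, 3 snRNP genes were lower and 0 higher, against 17.9% and 20.1% of all named genes, and the family median was -0.31. Without cortex array 2 of site 2, 3 snRNP genes were lower and 1 higher there, with a median of -0.23. The Sm ring proteins are encoded by Snrpe, Snrpg, Snrpd3 and Snrpb. Snrpe gave 959, 989, 900, 1030 and 847 in retina and 1690, 1723, 1563, 1836 and 1786 in cortex at the first site, and 968, 1207 and 1055 against 1485, 3081 and 1552 at site 2. Every retina array was below every cortex array of its site, with differences of -0.85 ± 0.07 (adjusted p = 6.2e-08) and -0.80 ± 0.21 (adjusted p = 0.014).

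Snrpg gave 526, 561, 546, 470 and 516 in retina and 1037, 966, 864, 956 and 983 in cortex at the first site, and 617, 789 and 843 against 1079, 1488 and 1024 at site 2. It did not overlap either and differed by -0.85 ± 0.07 (adjusted p = 4.7e-08) and -0.62 ± 0.16 (adjusted p = 0.013). Snrpd3 differed by -0.49 ± 0.11 (adjusted p = 0.0017) and -0.80 ± 0.22 (adjusted p = 0.019), although its first-site arrays overlapped, with 287 to 410 in retina and 395 to 579 in cortex. Without retina array 1 the site 2 calls of Snrpe (adjusted p = 0.064), Snrpg (0.064) and Snrpd3 (0.080) were lost, that of Snrpe also without retina array 3 (0.053), and that of Snrpd3 also without cortex array 1 (0.060) or 3 (0.068). Snrpb was called at neither site (0.05 ± 0.13 and 0.43 ± 0.15), and at site 2 it was higher without cortex array 2 (0.48, adjusted p = 0.010) or retina array 1 (0.54, adjusted p = 0.041).

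Snrpa1, Snrpc and Snrpb2 encode proteins specific to single particles. Snrpa1, a protein of the branch-point-binding particle, was lower by -0.43 ± 0.11 at the first site (adjusted p = 0.004) and Snrpc, a protein of the particle that binds the donor site, by -0.33 ± 0.07 (adjusted p = 0.001). Neither was called at site 2 (-0.22 ± 0.15 and 0.07 ± 0.21). Snrpb2, named after its values were seen, was called at neither site (-0.01 ± 0.17 and -0.39 ± 0.25), but was lower at site 2 without cortex array 1 (-0.68, adjusted p = 0.030), and its other probe set was lower at the first site (-0.81 ± 0.16, adjusted p = 0.00034). The annotated pseudogene Snrp1c-ps2 gave 396, 401, 345, 350 and 330 in retina and 103, 254, 109, 245 and 99.8 in cortex at the first site, a difference of 1.22 ± 0.22 (adjusted p = 0.00019), with its cortex arrays in a high and a low group. At site 2 it differed by 0.29 ± 0.27 (adjusted p = 0.52), and its probe set may take up RNA of related genes.

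Of the 8 SF3 genes, 3 were higher in retina, 1 lower and 4 not called at the first site, with a median of 0.15. At site 2, 2 were higher and 1 lower, with a median of 0.14. The 1 lower at each site was Sf3b1, whose probe sets disagree and for which no direction is given below. Over all named genes, 25.5% were higher and 28.0% lower at the first site, and 20.1% and 17.9% at site 2. Sf3b2, a subunit of the SF3B part, gave 737, 789, 792, 857 and 633 in retina and 480, 390, 453, 563 and 595 in cortex at the first site, and 617, 731 and 680 against 402, 567 and 381 at site 2. The tissues did not overlap, with a difference of 0.62 ± 0.11 at the first site (adjusted p = 0.00023) and 0.62 ± 0.15 at site 2 (adjusted p = 0.0092, or 0.059 without retina array 2). Sf3b3 was higher by 0.28 ± 0.08 at the first site (adjusted p = 0.011) and not called at site 2 (0.22 ± 0.14). Sf3a2 and Sf3b6, the latter a small subunit near the branch point, were called at neither site (0.02 ± 0.09 and 0.09 ± 0.09 at the first site). Neither were Sf3a1 and Sf3b5 (0.21 ± 0.12 and -0.13 ± 0.09 there), which are named after their values were seen. The other probe set of Sf3a2 was called lower in retina at the first site, with mean intensities of 822 in retina and 1095 in cortex. It was not called at site 2.

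Whether the tissue difference itself changed between sites was tested by the interaction of tissue and site, which called 2 of the 50 genes, Sf3b1 and Sf3a3, against 3.82% of all named genes (2.50% in the direction of Sf3a3 and 1.32% in that of Sf3b1). Sf3a3, a subunit of the SF3A part, gave 484, 506, 461, 501 and 431 in retina and 372, 397, 390, 392 and 349 in cortex at the first site, and 657, 767 and 663 against 383, 369 and 400 at site 2. It was higher in retina without overlap at both sites, by 0.32 ± 0.07 (adjusted p = 0.0012) and 0.85 ± 0.15 (adjusted p = 0.0017). The interaction was 0.53 ± 0.14 (adjusted p = 0.043). It was lost under 16 of 25 alternatives: no centring, no intensity trend, a pseudocount of 50, the replicate number as a block, and 12 of the 16 fits without a single array (adjusted p = 0.056 to 0.148). The single-array exceptions were cortex array 5 of the first site and the 3 cortex arrays of site 2. The interaction of Hnrnpm was 0.49 ± 0.14 (adjusted p = 0.056), and it passed without cortex array 1 (adjusted p = 0.038) or retina array 1 (adjusted p = 0.047) of site 2.

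Sf3b1 encodes the subunit that holds the branch point and is a frequent target of splicing inhibitors. Its brighter probe set gave 824, 861, 901, 733 and 742 in retina and 948, 959, 979, 961 and 1005 in cortex at the first site. Site 2 gave 205, 219 and 180 in retina and 962, 797 and 896 in cortex. The 3 retina arrays of site 2 were low, and no other array at either site fell below 733. The tissue difference was -0.25 ± 0.07 at the first site (adjusted p = 0.01) and -2.03 ± 0.17 at site 2 (adjusted p = 1.2e-05), and the interaction was -1.78 ± 0.16 (adjusted p = 1e-06).

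The other probe set of Sf3b1 did not show this drop. It gave 424, 374, 371, 385 and 284 in retina and 333, 278, 265, 345 and 275 in cortex at the first site, and 398, 427 and 346 against 408, 607 and 401 at site 2. The first-site groups overlapped, and the tissue difference was 0.29 ± 0.11 (adjusted p = 0.044), opposite in sign to the brighter probe set. Its difference at site 2 was -0.21 ± 0.16 (adjusted p = 0.386), and between the sites in retina it was 0.08 ± 0.14 (adjusted p = 0.711), against -1.94 ± 0.12 (adjusted p = 2.4e-10) for the brighter probe set. Both measure aliquots of the same pool, and the reason for the disagreement was not tested. No direction is therefore given for the gene Sf3b1.

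**Figure D3:**
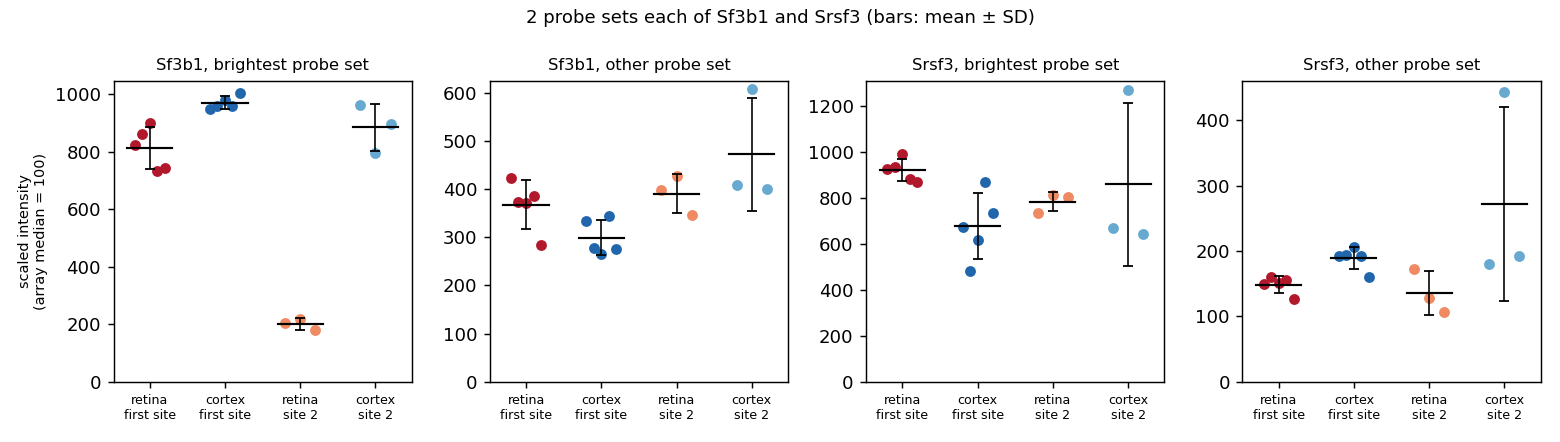
Scaled intensity (y axis, array median 100, linear, from 0) of the 2 probe sets each of Sf3b1 and Srsf3 on every array of the 4 groups (x axis), with bars for the mean ± SD. The brighter probe set of Sf3b1 falls to between 180 and 219 on the 3 retina arrays of site 2, where the other stays between 346 and 427.

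Over the 17 genes with several probe sets, all probe sets of a gene gave 1 and the same call for 7 genes at the first site, opposite calls for 2 (Sf3b1 and Srsf3) and a mixture of called and not called for 8. At site 2 the numbers were 9, 0 and 8. Of the 20 probe sets used as a check, 15 were above the control probe sets on all arrays, 9 were lower in retina at the first site and 3 higher, with a median of -0.33, against 25.2% and 21.9% of all probe sets called lower and higher.

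Because each pool was split between sites, a difference between sites within a tissue compares 2 measurement sites on the same RNA. In retina 15 of the 50 genes read higher at site 2 and 6 lower, against 38.5% of all named genes called (27.0% higher and 11.5% lower). In cortex 7 read higher and 3 lower, against 17.9% (11.9% and 6.04%). Without cortex array 2 of site 2 the cortex counts were 13 higher and 6 lower, and without cortex array 1 of the first site 1 gene read lower. With quantile normalization the retina counts turned to 10 higher and 17 lower and the cortex counts to 5 and 7, and with arrays scaled to a median of 100 before the pseudocount the cortex counts were 10 and 2. Elavl1 read higher at site 2 in retina by 0.62 ± 0.16 (adjusted p = 0.0052) and in cortex by 0.72 ± 0.16 (adjusted p = 0.0048), although its retina call was lost with quantile normalization. The brighter probe set of Srsf4 read higher by 0.77 ± 0.11 (adjusted p = 2.1e-05) and 0.49 ± 0.11 (adjusted p = 0.0038). Its other probe set did not rise in retina, with mean scaled intensities of 348 at the first site and 317 at site 2. In cortex that probe set gave means of 177 and 214. For comparison, the tissue differences were 0.95 and 0.85 for Elavl1 and 0.69 and 0.96 for Srsf4. Hnrnpl, chosen after its values were seen, read lower at site 2 in retina by -0.83 ± 0.16 (adjusted p = 0.00056) and in cortex by -0.46 ± 0.16 (adjusted p = 0.057, or 0.021 without cortex array 1 of site 2).

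**Figure D4:**
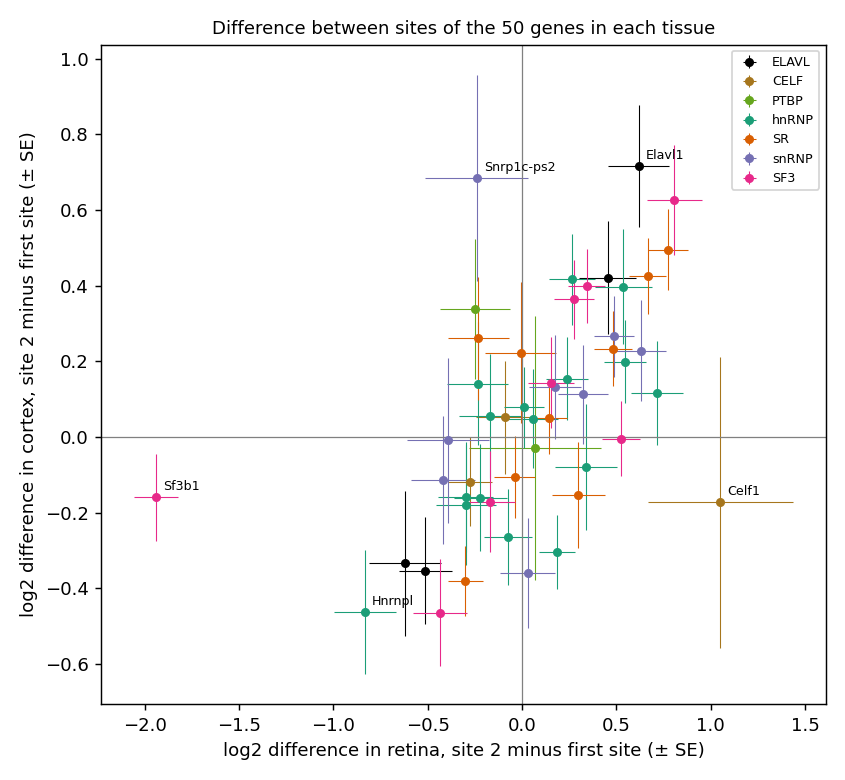
Log2 difference between site 2 and the first site in cortex (y axis) against that in retina (x axis), each ± SE, for the 50 genes coloured by family. Most points lie within 1 unit of 0 in both tissues, and Sf3b1 stands apart at -1.94 in retina and -0.16 in cortex.

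Beyond these families, a list of 115 other splicing and RNA processing genes had 82 measured members. At the first site 26 were higher in retina and 25 lower (62.2% called), with a median of -0.03. Over all named genes 53.5% were called there, 25.5% higher and 28.0% lower. At site 2, 17 of the list were higher and 11 lower (34.1% called), with a median of 0.13. Over all named genes 38.0% were called at site 2, 20.1% higher and 17.9% lower. Toward retina, the largest first-site differences were those of Mbnl1, a splicing regulator of muscle and brain (1.70 ± 0.09 and 1.24 ± 0.27 at the 2 sites), and Pcbp2, which binds C-rich RNA (1.35 ± 0.08 and 0.98 ± 0.19), each called at both sites. Raly, an hnRNP C relative, was higher by 1.34 ± 0.09 and 0.48 ± 0.15, both called, and Snw1, a spliceosome component, by 1.17 ± 0.11, with 0.43 ± 0.16 (adjusted p = 0.069) at site 2. Toward cortex, the largest there were those of Nudt21 (-0.99 ± 0.09 and -0.84 ± 0.16) and Cstf2 (-0.91 ± 0.09 and -1.24 ± 0.19), both of mRNA 3′ end processing, and of Tia1, which binds U-rich RNA (-0.91 ± 0.08 and -0.71 ± 0.17), called at both sites. Sfpq, a protein of nuclear paraspeckles, differed by -0.73 ± 0.09 at the first site and by -0.64 ± 0.28 (adjusted p = 0.11) at site 2.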

How the data were processed

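Total RNA of each pool, extracted with TRIzol per the labels, was labelled and hybridised to 1-colour arrays. The deposited values are intensities, 1 per probe set and array. The method by which the authors summarised and scaled these intensities is not given in the sources used here, and array medians differ, so arrays were centred here. Such scaling can move weak calls. Probe sets with several symbols (396, of which 7 have a symbol of these families) or none (1193) were not named, and 66 control probe sets were left out. A pseudocount of 16 was added before log2, which understates differences of dim probe sets. It was added to unscaled intensities before centring, so centred values of bright probe sets also shift between arrays of unlike median. This shift is largest on cortex array 2 of site 2, which has the lowest array median (45.7).

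The tests used limma 3.58.1 under R 4.3.3 (lmFit and eBayes, intensity trend, two-sided, Benjamini-Hochberg over 12422 probe sets, threshold 0.05), per site for the tissue difference and over 16 arrays with a mean per group for the interaction and the site differences. On simulated arrays with 12422 probe sets, the first-site fit recovered 96% of changes of 1 log2 unit and the site 2 fit 49%. Changes were placed only in brighter probe sets, so these shares do not cover dim ones. The simulated noise was independent between arrays, with no array that stood apart. Among unchanged probe sets, 11 were called at the first site and 10 at site 2. The control level was chosen after seeing the data.

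The members, the lists and the rule for naming genes were chosen with earlier results of these data known. The rule named all genes of families of up to 5, and in larger families the 5 with the largest called first-site difference in each direction, the 2 brightest, those with opposite calls or an interaction, and a few set by name. Chosen probe sets of 10 genes carry endings that can mark sequence shared with other genes: Celf4, Sf3a2, Sf3b2, Snrp1c-ps2, Snrpe and Srsf3 (f), Snrpb and Snrpb2 (r), and Hnrnpdl and Srsf2 (s). The alternatives tried were no centring, quantile normalization, pseudocounts of 1 and 50, scaling to a median of 100, bright probe sets only, no trend, the replicate number as a block, means over probe sets, updated symbols, 1 fit over all arrays and each array left out.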

Additional observations from a re-analysis of the deposited data

Results flagged for a closer look

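In 100 groups of 5 arrays (50 genes, both tissues at the first site), 3 held an array far from the others of its group on the centred log2 scale, where chance alone sets apart about 1 in 20. Hnrnpl read 887 in scaled intensity on retina array 4 of the first site, while the other retina arrays there gave 650 to 691. Sf3b3 read 382 on retina array 3, while the others gave 405 to 436. Srsf9 read 527 on retina array 5, while the others gave 547 to 575.

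For 2 genes the tissue difference itself differed between the sites by the interaction test. Sf3b1 had an interaction of -1.782 on the log2 scale (adjusted p = 1e-06), which its other probe set did not show. Sf3a3 had an interaction of 0.529 (adjusted p = 0.043), which most alternatives lost.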

How the results depend on the processing

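Of the 39 genes called at the first site, 23 kept their call under every alternative run, and of the 24 called at site 2, 3 did (Elavl2, Elavl3 and Sf3b1). Counts moved most with no centring: the first-site count of lower genes went from 27 to 15, the site 2 counts from 9 higher and 15 lower to 0 and 3, the interaction to 0 and 0, the retina site difference from 15 higher and 6 lower to 0 and 1, and the cortex one from 7 and 3 to 0 and 0. That setting leaves array brightness in the spread. It also moved the median interaction over all genes from 0.047 to -0.091. With quantile normalization, 17 genes read lower at site 2 in retina and 7 in cortex, and 2 had a higher interaction, as with bright probe sets only. Without the trend, 1 read lower in cortex. The 1 higher interaction (Sf3a3) was 0 with no trend, with a pseudocount of 50 and with the replicate block. With the mean of all probe sets, Sf3b1 differed by 0.02 at the first site (main value -0.248). At site 2 the calls of Celf4, Hnrnpa1, Srsf6, Srsf11, Snrpd3 and Hnrnph2 were also lost with no trend, those of Celf4, Snrpe, Srsf6 and Srsf11 with a pseudocount of 1 and, with that of Hnrnpa1, with arrays scaled before the pseudocount, that of Hnrnpa1 also with quantile normalization, and those of Hnrnpu and Hnrnpul2 with the mean of all probe sets. At the first site those of Hnrnpa2b1, Hnrnpm and Sf3b1 were lost in 1 fit over all arrays. Ptbp2's site difference in cortex, -0.029 and not called over all arrays, was 0.735 and called without cortex array 2 of site 2 (range -0.436 to 0.735 over the fits without 1 array). The cause of these changes was not tested. Leaving out each array in turn gave 11 to 12 higher and 26 to 27 lower genes at the first site, 8 to 10 higher and 8 to 22 lower at site 2, 0 to 2 higher interactions, 11 to 14 higher and 4 to 8 lower in retina between sites, and 5 to 13 higher and 1 to 6 lower in cortex.

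Deviations of same-numbered arrays from their group means correlated weakly, from -0.187 to 0.0395 at the first site and 0.0113 to 0.0802 at site 2. With so few arrays, these correlations cannot settle whether the numbers pair arrays. With the replicate block, 11 genes were higher and 27 lower at the first site and 9 and 17 at site 2. The block could not be fitted for the site differences. Precision is limited by the number of arrays, and each tissue is 1 pool.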
